A study of Locusta migratoria with 12 samples.

Results

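miR-1-3p, miR-133-3p and miR-281-3p are microRNAs (miRNAs, short RNAs that repress messenger RNAs) best known from muscle and gut, and they were followed here in 12 libraries of locust fat body. The 3 miRNAs were chosen from the 103 miRNAs into which the rows of the count table were joined. For each, rows with an arthropod species prefix, the right number and the 3p arm or no arm were taken, and the row with the highest total over the 12 libraries stood for the miRNA. The fly names of the 3 are dme-miR-1-3p, dme-miR-133-3p and dme-miR-281-3p. The row was picked by its total alone. Small RNA was sequenced from the fat body of adult female migratory locusts (Locusta migratoria), with 3 libraries at each of 4 ages, 0, 2, 4 and 6 days after the moult to the adult. The labels used here name no treatment and no strain and do not say how many animals gave a library. Each p-value is therefore measured against the spread of the libraries as sequenced, and that spread may be technical.

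miR-1 is a muscle miRNA in both flies and vertebrates, where it is made in heart and body muscle. miR-133 lies next to a miR-1 gene in vertebrate genomes, is transcribed with it, and acts in muscle cell growth and differentiation. miR-281 is an abundant miRNA of the midgut in mosquitoes. The fat body stores nutrients and makes yolk proteins in insects. It lies loose in the body cavity against the gut and the body wall muscles. The levels of these miRNAs were therefore read as a possible measure of muscle or gut RNA in a dissected fat body. Whether fat body cells make these miRNAs themselves was not tested. Where a level differed in whole-tissue RNA, fewer cells of a type and less RNA per cell cannot be told apart.

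The rows that stood for each miRNA differed in how much else they shared. For miR-1-3p, 26 of 29 arthropod rows held counts, and the chosen row, named in a tick, held 14963 counts against 13594 in the fly row, a total that 23 rows shared. For miR-133-3p, all 26 arthropod rows held counts, and the chosen row, named in a fruit fly species, held 1195 counts against 1183 in the row of Drosophila melanogaster. Its joined group held 68 rows, many of them named in vertebrates, so arthropod and vertebrate miR-133 could not be told apart in these counts. For miR-281-3p, 25 of 28 arthropod rows held counts, and the chosen row was the locust's own with 5390 counts, while the fly row held only 5. Of the 5p arms, the 6 arthropod rows of miR-1 and the 4 of miR-133 were at 0 in every library, and the best 5p row of miR-281 held 3459 counts.

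The joined miRNAs of a library summed to between 386007 counts (day 0 replicate 1) and 2340402 counts (day 2 replicate 1). Day 0 replicate 1 stood apart, with a median correlation of 0.664 with the other libraries across miRNAs against 0.951 to 0.985 for the rest. miR-8-3p, the most abundant miRNA, took 8.29% of its counts against 26.9% to 58.4% elsewhere. Some miRNA numbers held counts here only in rows with a moth or butterfly prefix. These rows took 2589 counts in day 0 replicate 1 and 11 or fewer in each of the other libraries. The set was drawn from the same counts, so it describes that library and is no separate test of it. Day 0 replicate 1 is 1 of the 3 libraries behind each day 0 level used below.

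miR-1-3p was the most abundant and the most variable of the 3 muscle and gut miRNAs. Levels are normalised CPM, a miRNA's counts per 1e6 counts of the effective library total, given in the order of replicates 1, 2 and 3. At day 0 the miR-1-3p level was 177.4, 3227 and 1740 CPM, from 83, 7638 and 3493 counts. At day 2 it was 472.4, 920.6 and 666.6 CPM. Only day 0 replicate 1 lay below the day 2 libraries, and the other day 0 libraries lay above all of them. At day 4 the level was 112.1, 42.67 and 148.2 CPM, the last 2 from 46 and 189 counts. At day 6 it was 65.32, 419.1 and 307.3 CPM. All day 4 libraries lay below all libraries of days 0 and 2, whereas day 6 overlapped day 4. Such separation was not particular to miR-1-3p. miR-278, for example, was at 4576, 4349 and 3133 CPM at day 4, below all its libraries of days 0 and 2. Here and below, the share of all tested miRNAs that separate in this way was not counted, so separation is description only. The miR-1-3p level spanned 75.6-fold from the lowest library (day 4 replicate 2) to the highest (day 0 replicate 2), and miR-1-3p ranked 35 of 103 by mean level.

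**Figure D1:**
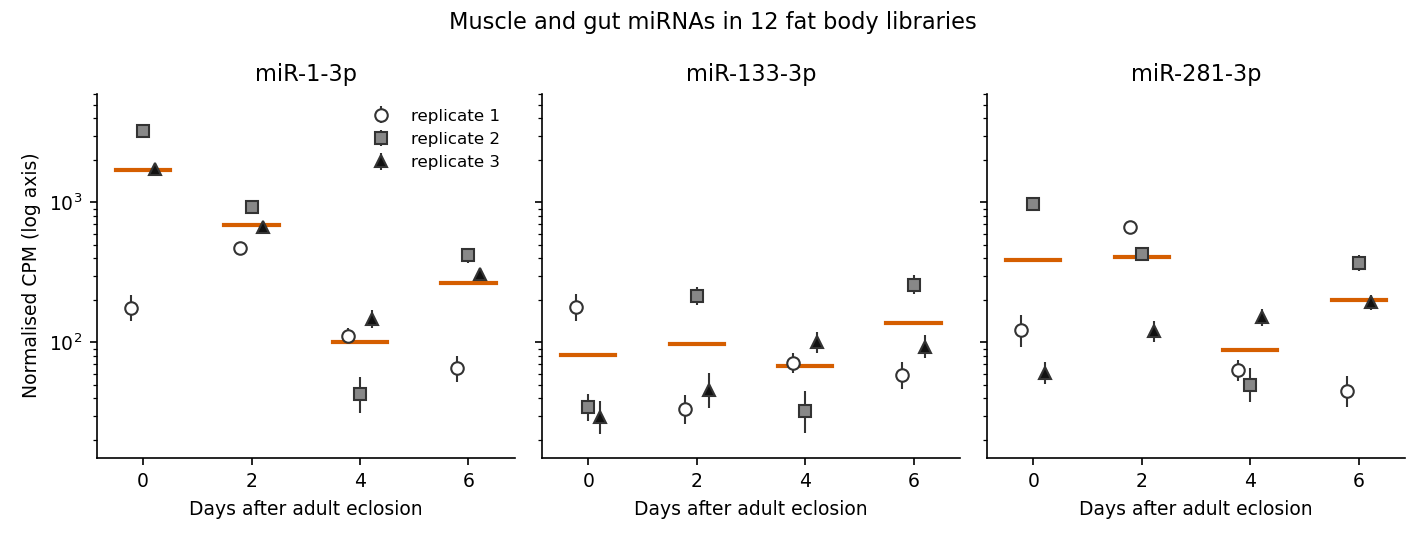
Normalised CPM of miR-1-3p, miR-133-3p and miR-281-3p (log axis) by days after eclosion in 12 libraries; symbols are replicates 1, 2 and 3, vertical lines 95% counting intervals and orange bars the mean of 3 libraries. miR-1-3p falls from a mean of 1715 CPM at day 0 to 101.0 CPM at day 4, while the libraries of all ages overlap for miR-133-3p.

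The order of the mean miR-1-3p levels was day 0 (1715 ± 1525 CPM, SD, n = 3), day 2 (686.5 ± 224.7 CPM), day 6 (263.9 ± 180.9 CPM) and day 4 (101.0 ± 53.64 CPM). Neighbours in this order did not differ beyond the spread by the test, although the libraries of day 2 and day 6 did not overlap. Between day 0 and day 4, miR-1-3p fell by 4.08 (log2 scale, with an SE of 0.96 and an adjusted p of 0.00823 from edgeR), with every day 4 library below every day 0 library. The test was edgeR's quasi-likelihood test with Benjamini-Hochberg adjustment over the 91 miRNAs tested, called at an adjusted p under 0.05. In that comparison 17 of the 91 (18.7%) fell and 29.7% were called in either direction, and miR-1-3p was the 1 called among the 3 muscle and gut miRNAs. Without day 0 replicate 1 the fall was 4.53 (edgeR adjusted p = 0.00163). The call held in each of 12 fits that left out a library, with changes of -4.53 to -3.25.

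Between day 0 and day 6, miR-1-3p fell by 2.71 (SE 0.90, edgeR adjusted p = 0.0316), with overlapping libraries since day 0 replicate 1 lay below the highest 2 of day 6. The background was wide here, with 25.3% of the tested miRNAs lower and 41.8% called in either direction. This call held in 7 of the 12 fits without a library. It ended without day 0 replicate 2 (change -1.87, adjusted p = 0.109), day 0 replicate 3 (-2.70, 0.0603) or any of the day 6 libraries (-2.21, -3.18 and -2.83 without replicates 1, 2 and 3, with adjusted p from edgeR of 0.104, 0.054 and 0.0762), and it was stronger without day 0 replicate 1 (-3.21, 0.00449).

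Between day 0 and day 2, miR-1-3p had a log2 change of -1.32 (SE 0.86, edgeR adjusted p = 0.279), and the libraries overlapped. None of the 3 muscle and gut miRNAs was called at day 2, where 15.4% of the tested miRNAs were. Over the 4 ages miR-1-3p changed (edgeR adjusted p = 0.0225), among 26 of 91 (28.6%) called. The call over the ages held in 8 of the 12 fits without a library, and was lost without day 0 replicate 2 (adjusted p = 0.0601) and without day 4 replicates 1, 2 and 3 (0.0548, 0.0547 and 0.0546).

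**Figure D2:**
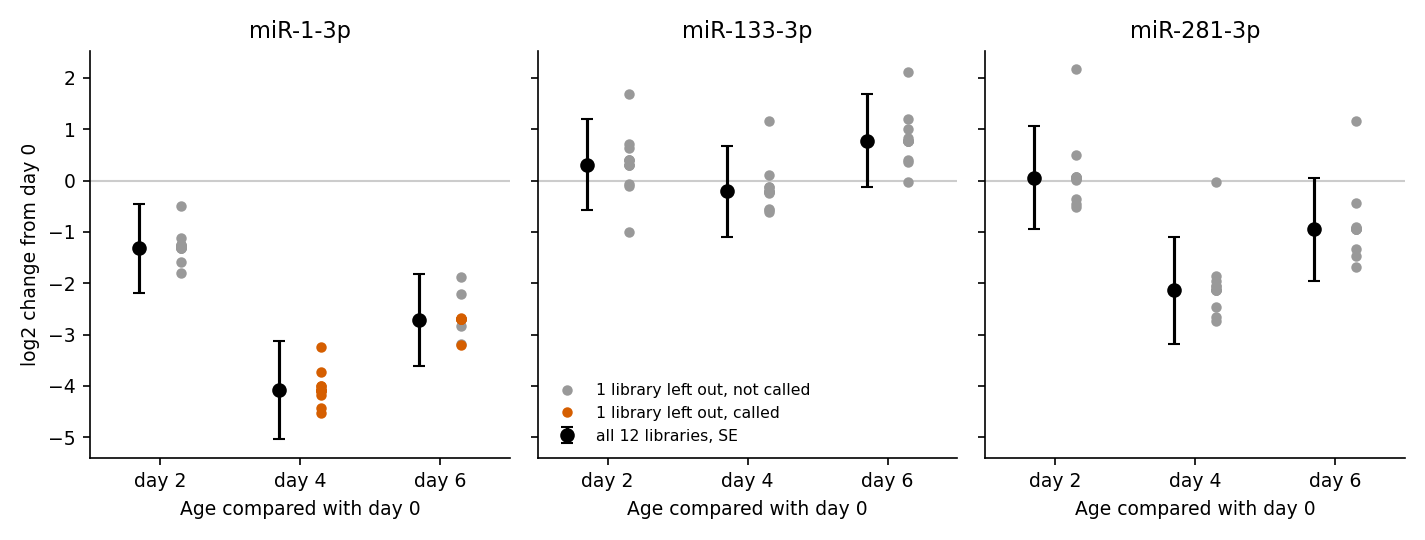
Log2 change from day 0 at days 2, 4 and 6 for each miRNA, with all 12 libraries (black, bars are SE) and with each library left out in turn (orange where called by edgeR, grey where not). miR-1-3p at day 4 is called in all 12 fits and at day 6 in 7, and no fit calls miR-133-3p or miR-281-3p.

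Among the later ages no miRNA was called by edgeR in the comparisons of day 4 with day 2, day 6 with day 4 and day 6 with day 2 (0% of 91). At an unadjusted p under 0.05 there were 5, 5 and 14, DESeq2 called 1, 0 and 4, and limma-voom called none. For miR-1-3p the log2 change from day 2 to day 4 was -2.76 (SE 0.91, edgeR adjusted p = 0.463), with no overlap between the libraries. From day 4 to day 6 it was 1.38 (SE 0.87, edgeR adjusted p = 0.841), with overlap. The day 6 libraries all lay below the day 2 libraries, with a log2 change of -1.38 (SE 0.87, edgeR adjusted p = 0.496).

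miR-133-3p, the other muscle miRNA, was low and showed no such course. Its level was 179.6, 34.65 and 29.39 CPM at day 0 and 33.36, 215.8 and 45.78 CPM at day 2. At day 4 it was 71.45, 32.47 and 100.4 CPM, and at day 6 it was 58.14, 258.5 and 93.43 CPM. Every age held libraries on both sides of the others, and the highest level, in day 6 replicate 2, was 8.8-fold above the lowest, in day 0 replicate 3. The means were 81.21 ± 85.24, 98.3 ± 101.9, 68.1 ± 34.08 and 136.7 ± 107 CPM (SD, n = 3) at days 0, 2, 4 and 6, so the order of the means was day 6, day 2, day 0 and day 4, with no neighbours apart beyond their spread. miR-133-3p ranked 62 of 103 by mean level.

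The log2 changes of miR-133-3p from day 0 were 0.31 (SE 0.89) at day 2, -0.21 (SE 0.89) at day 4 and 0.78 (SE 0.90) at day 6, and none was called (edgeR adjusted p = 0.84, 0.881 and 0.491). Over the 4 ages the adjusted p was 0.756. Day 0 replicate 1 set the day 0 mean: without it the changes were 1.69, 1.17 and 2.12, still not called, with the smallest adjusted p from edgeR, 0.0893, at day 6. With standard errors near 0.9, changes as large as these could not be told from none at this number of libraries.

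miR-281-3p, the gut miRNA, varied widely between libraries of the same age. At day 0 its level was 121.9, 979.0 and 60.77 CPM, and at day 2 it was 667.7, 427.9 and 120 CPM. At day 4 it was 63.62, 50.09 and 151.3 CPM, and at day 6 it was 45.22, 367.7 and 193.4 CPM. Day 0 replicate 2 was the highest of all, 16.1-fold above day 0 replicate 3, and the libraries of every pair of ages overlapped. The means were 387.2 ± 513.4, 405.2 ± 274.6, 88.35 ± 54.97 and 202.1 ± 161.4 CPM (SD, n = 3) at days 0, 2, 4 and 6, in the order day 2, day 0, day 6 and day 4, with no neighbours apart beyond their spread. It ranked 42 of 103 by mean level.

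miR-281-3p changed by 0.06 (SE 1.0), -2.14 (SE 1.04) and -0.95 (SE 1.01) on the log2 scale from day 0 to days 2, 4 and 6, none of which was called (edgeR adjusted p = 0.963, 0.133 and 0.468). Over the 4 ages the adjusted p was 0.338. The day 4 value rested on a single library, day 0 replicate 2, and was -0.03 without it. Without that library the day 2 and day 6 values were 2.17 and 1.16, and without day 0 replicate 1 the 3 changes were -0.35, -2.47 and -1.34.

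The 5p arm of miR-281, the strand opposite the 3p arm in the hairpin, was not used in choosing the rows. Its level was 513.1, 530.3 and 54.8 CPM at day 0, 431.0, 260.1 and 69.59 CPM at day 2, 51.39, 29.68 and 115.3 CPM at day 4, and 23.69, 268.2 and 88.51 CPM at day 6. In 11 of the 12 libraries the 5p arm held 31.4% to 47.4% of the counts of both arms. In day 0 replicate 1 it held 80.8% (95% exact binomial interval 75.9% to 85.1%, counting error only), outside that range. Across the 12 libraries both arms went together (Pearson's r = 0.856, permutation p = 0.00069, adjusted 0.00207 over 3 relations of other forms; Spearman's rho = 0.874, permutation p = 0.00043). Leaving out the 2 libraries farthest from the median, r was 0.778. With all libraries edgeR called the 5p arm in none of the comparisons, with log2 changes of -0.52, -2.48 and -1.54 at days 2, 4 and 6 (adjusted p = 0.783, 0.0825 and 0.241). The changes were -0.20, -2.07 and -1.19 without day 0 replicate 1, also not called. The day 4 change was called by DESeq2 (-2.54, adjusted p = 0.0253) and by edgeR without day 0 replicate 3 (-2.99, adjusted p = 0.0446).

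**Figure D3:**
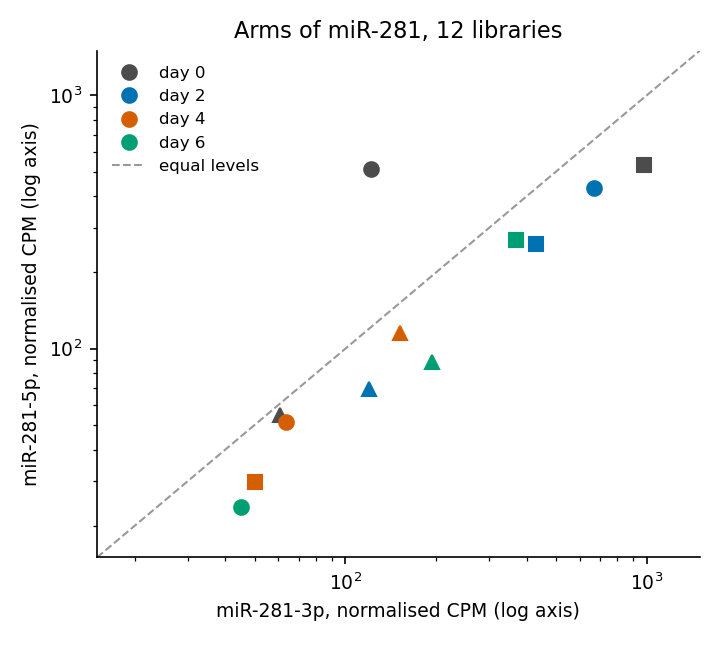
Normalised CPM of miR-281-3p (horizontal) and miR-281-5p (vertical), both on log axes, in 12 libraries coloured by day, with circles, squares and triangles for replicates 1, 2 and 3; the dashed line marks equal levels. In 11 libraries the 3p arm is the higher, and day 0 replicate 1 lies above the line with 513.1 CPM of the 5p arm.

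The rows named in vertebrates and other animals gave miR-1 forms that the choice of rows had left aside. The form named in vertebrates, shared by 29 rows, held 346 counts in all. Its level was 0, 2.535 and 3.985 CPM at day 0, where a count of 0 in replicate 1 allows up to 6.414 CPM, and 8.896, 63.53 and 27.47 CPM at day 2. At day 4 it was 25.45, 10.2 and 33.72 CPM, and at day 6 it was 17.95, 80.29 and 39.34 CPM. All later libraries lay above all day 0 libraries, whereas arthropod miR-1-3p was lower in all day 4 libraries than in any of day 0. The vertebrate-named form rose by 3.57 (SE 0.92), 3.08 (SE 0.91) and 4.04 (SE 0.93) on the log2 scale at days 2, 4 and 6 (edgeR adjusted p = 0.0215, 0.026 and 0.00685). These values depend on how low counts are fitted, since the day 0 libraries held 0, 6 and 8 counts. All 3 lay under the filter's minimum count of 10. The form passed that filter through the later ages, which favours a rise from day 0. Of all tested miRNAs, 3.30% rose at day 2, 11.0% at day 4 and 16.5% at day 6.

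These calls held in 10, 9 and 12 of the 12 fits that left out a library. With no filter on low counts the day 2 and day 4 calls were lost (edgeR adjusted p = 0.054 and 0.0509), as was the day 2 call with only the libraries compared (0.0972). The day 2 call ended without day 2 replicate 2 (2.71, edgeR adjusted p = 0.078) or replicate 3 (3.69, 0.0563). The day 4 call ended without day 0 replicate 2 (3.02, 0.0533), day 4 replicate 1 (3.01, 0.0712) or replicate 3 (2.77, 0.0865). Without day 0 replicate 1 the changes were 3.38, 2.90 and 3.80, all called (edgeR adjusted p = 0.0299, 0.0389 and 0.0106). Over the 4 ages the adjusted p was 0.0339, and that call held in 3 of the 12 fits, those leaving out replicate 1 or 2 of day 2 or replicate 1 of day 6 (edgeR adjusted p = 0.0231 to 0.0338), and was lost in the others, at 0.0523 to 0.0909, with no filter (0.0701) and with total counts (0.0531).

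Of the counts of both miR-1 forms, the vertebrate-named form held 0%, 0.0785% and 0.229% at day 0, with a limit of 3.61% set by the 83 counts of replicate 1. It held 1.85%, 6.46% and 3.96% at day 2, 18.5%, 19.3% and 18.5% at day 4, and 21.6%, 16.1% and 11.3% at day 6. The share was higher in every library of days 4 and 6 than in any of days 0 and 2. A row named in a lamprey, miR-1b, held 213 counts and had log2 changes of -0.40, -2.22 and -2.14 at the 3 later ages, none called (edgeR adjusted p = 0.802, 0.0825 and 0.0877). Without day 0 replicate 1 its changes at days 4 and 6 were -2.59 and -2.57, both called (edgeR adjusted p = 0.0253 and 0.0254).

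The counts of miR-133-3p were also set against those of miR-1-3p in the same library, where scaling between libraries cancels. Of both together, miR-133-3p made up 50.3%, 1.06% and 1.66% at day 0 and 6.6%, 19.0% and 6.43% at day 2. At day 4 it made up 38.9%, 43.2% and 40.4%, and at day 6 47.1%, 38.2% and 23.3%. Day 0 replicate 1 lay with the later libraries and far from the others of its age, with a 95% interval of 42.5% to 58.1% against 0.846% to 1.32% in replicate 2. Apart from it, every library of days 4 and 6 had a higher share than every library of days 0 and 2. These shares compare libraries with each other and not the amounts of the miRNAs.

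**Figure D4:**
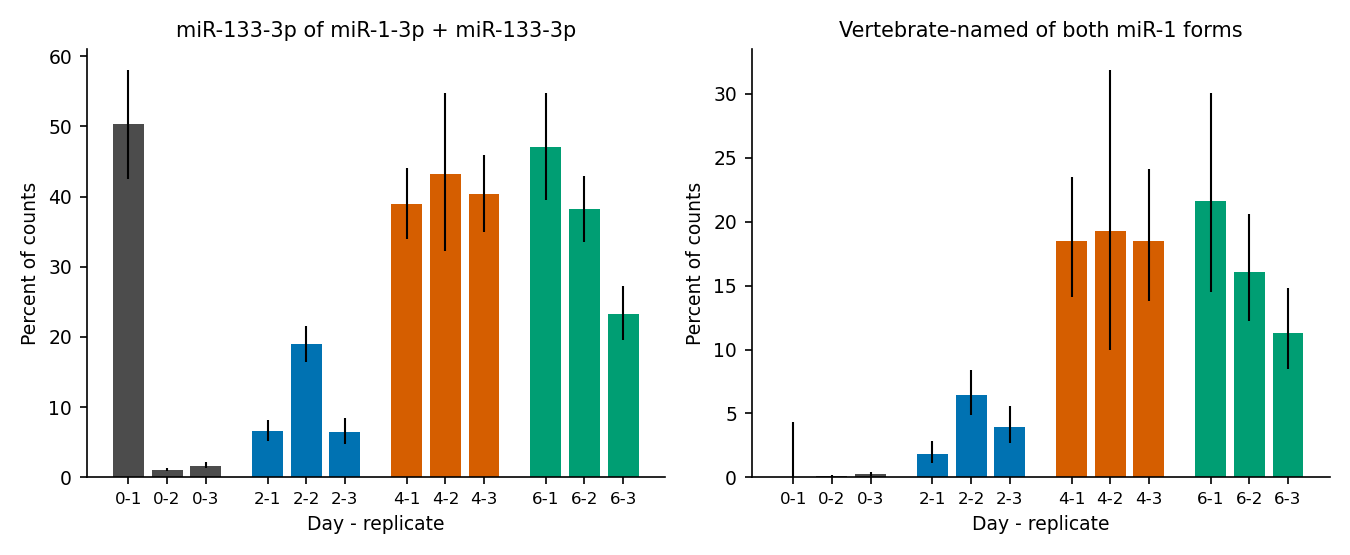
Share of counts, in percent, of miR-133-3p in miR-1-3p plus miR-133-3p (left) and of the vertebrate-named form in both miR-1 forms (right) in each library, labelled day - replicate; lines are 95% exact binomial intervals for counting error. The left share is 1.06% and 1.66% in replicates 2 and 3 of day 0 but 50.3% in replicate 1, and the right share is 0.0785% and 0.229% in replicates 2 and 3 of day 0, 0 of 83 counts in replicate 1, and at least 11.3% at days 4 and 6.

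Whether the muscle and gut miRNAs vary together between libraries was asked with correlations of log2 (CPM + 1) over the 12 libraries, for 3 pairs. miR-1-3p and miR-133-3p, both of muscle, showed no relation past the threshold (r = -0.106, permutation p = 0.741, adjusted 0.741; rho = -0.112, permutation p = 0.735, adjusted 0.735), and r was -0.158 without the 2 libraries farthest from the median of miR-1-3p. miR-133-3p and miR-281-3p had r = 0.191 (permutation p = 0.547, adjusted 0.741) and rho = 0.315 (permutation p = 0.317, adjusted 0.475), and r was -0.14 without the 2 farthest. miR-1-3p and miR-281-3p had r = 0.647 (permutation p = 0.0242, adjusted 0.0725) and rho = 0.615 (permutation p = 0.0364, adjusted 0.109), which missed the threshold after adjustment. That relation rested on few libraries: r was 0.381 without day 0 replicate 2 and day 4 replicate 2, the 2 farthest from the median, and ranged from 0.496 to 0.879 as each library was left out. Without day 0 replicate 3, r was 0.879 (permutation, adjusted p = 0.00108), the only such fit past the threshold. On deviations from the age means, r was 0.562 as a description.

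Within ages, arthropod miR-1-3p and its vertebrate-named form deviated together (r = 0.829 on deviations from the age means, a description), while over all libraries r was -0.129 (permutation p = 0.69, adjusted 0.69; rho = -0.0909, permutation p = 0.784, adjusted 0.784) and 0.0298 without the 2 farthest. miR-133-3p and the vertebrate-named form had r = 0.368 (permutation p = 0.24, adjusted 0.359) and rho = 0.608 (permutation p = 0.0401, adjusted 0.0601), and r was -0.0534 without the 2 farthest.

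Library depth moved with the level of miR-133-3p. Its 3 highest levels were in the 3 shallowest libraries, day 0 replicate 1, day 6 replicate 2 and day 2 replicate 2. Over the 12 libraries the level had r = -0.755 with the log2 library total (permutation p = 0.00492, adjusted 0.0148 over 3 relations) and rho = -0.65 (permutation p = 0.0251, adjusted 0.0754). The value was -0.586 without the 2 libraries farthest from the median depth and -0.728 without day 0 replicate 1. For miR-1-3p r was 0.133 (permutation p = 0.681, adjusted 0.99; rho = 0.154, permutation p = 0.632, adjusted 0.767), and 0.0876 without the 2 farthest. For miR-281-3p r was 0.00413 (permutation p = 0.99, adjusted 0.99; rho = 0.0979, permutation p = 0.767, adjusted 0.767), and 0.0814 without them. Among the 91 miRNAs tested, miR-133-3p had the third lowest correlation with depth, against a median of 0.0688. The total is the divisor of the level, and the part of depth in the miR-133-3p values was not tested.

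**Figure D5:**
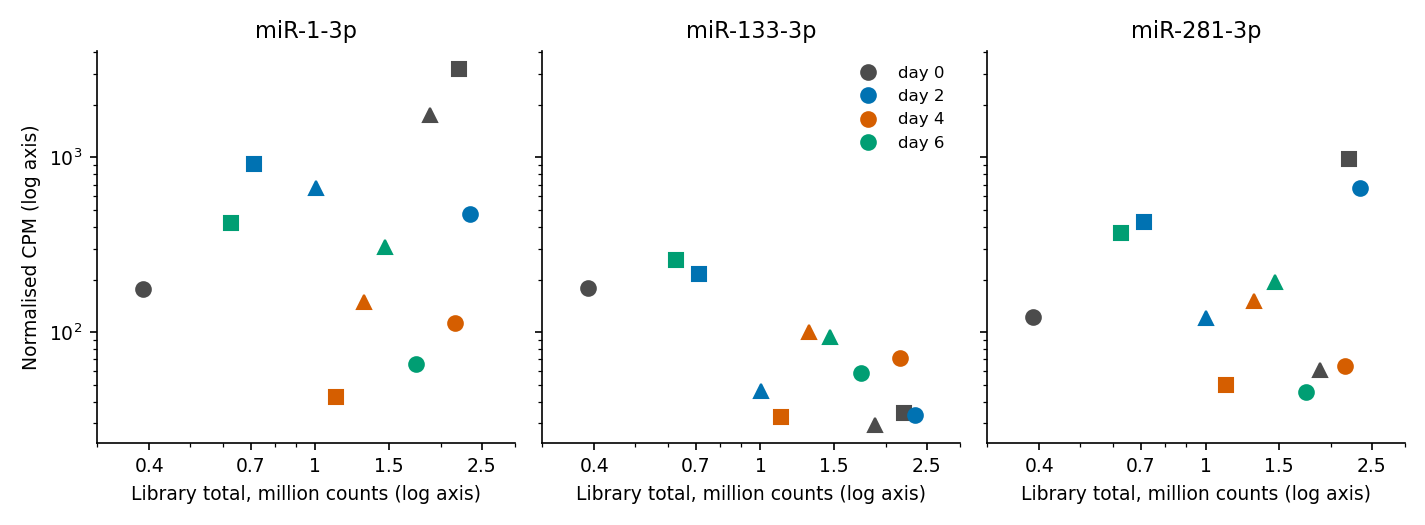
Normalised CPM of each miRNA (vertical, log axis) against the library total in units of 1e6 counts (horizontal, log axis), coloured by day, with circles, squares and triangles for replicates 1, 2 and 3. miR-133-3p is highest in the 3 shallowest libraries (r = -0.755 on log2 scales), and no such relation is seen for miR-1-3p or miR-281-3p.

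The miRNAs whose levels over the 12 libraries were most like each of the 3 were found among all tested miRNAs, other forms of the same miRNA left out. Closest to miR-1-3p were miR-307-3p (r = 0.728), a miR-263b-5p form named in a mite (0.697), a miR-184b form named in an annelid (0.686), miR-315 (0.649) and miR-281-3p (0.647). Closest to miR-281-3p were miR-1-3p, miR-277-3p (0.508), miR-315 (0.498), the lamprey-named miR-1b (0.496) and miR-316 (0.483). Closest to miR-133-3p were miR-378 (0.761), let-7c-5p (0.674), let-7f-5p (0.663), miR-8485 (0.645) and a miR-7 form named in a tunicate (0.626). None of the 5 miRNAs most like miR-133-3p has an arthropod name, whereas 22 of the 91 tested miRNAs have none. These correlations describe 12 libraries that share depth and age and carry no test.

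Other miRNAs of muscle and gut were read beside the 3. miR-206, a miRNA of vertebrate skeletal muscle, has no arthropod row, and its vertebrate rows held at most 38 counts. In the gut list, miR-1174, a mosquito midgut miRNA, was at 0 in its 3 arthropod rows. miR-1175-3p, its neighbour in mosquitoes, held 927 counts. Its level was 79.1, 44.79 and 45.83 CPM at day 0, 41.37, 37.16 and 49.45 CPM at day 2, 44.54, 62.15 and 75.28 CPM at day 4, and 63.17, 40.15 and 120.5 CPM at day 6. Its log2 changes from day 0 were -0.39, 0.12 and 0.42, none called (edgeR adjusted p = 0.596, 0.881 and 0.468). They were -0.05, 0.50 and 0.76 without day 0 replicate 1, again not called. Its highest level was in day 6 replicate 3, whereas that of miR-281-3p was in day 0 replicate 2.

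By summed level, the muscle list ranged from 357 to 3262 CPM at day 0, 505.7 to 1136 CPM at day 2, 75.13 to 248.6 CPM at day 4 and 123.5 to 677.7 CPM at day 6. The gut list ranged from 106.6 to 1024 CPM, 169.4 to 709 CPM, 108.2 to 226.6 CPM and 108.4 to 407.9 CPM at the same ages. Of the 2 muscle miRNAs tested, miR-1-3p fell at days 4 and 6, where 18.7% and 25.3% of all tested miRNAs fell. The median log2 change of the list was -2.15 and -0.96, beside -0.07 and 0.04 over all tested miRNAs. With 2 miRNAs the list median is their average and describes neither. At day 4 it averages -4.08 for miR-1-3p and -0.21 for miR-133-3p, and at day 6 -2.71 and 0.78. The 3 gut rows tested were both arms of miR-281 and miR-1175-3p, and none was called at any age. Their median log2 changes were -0.39, -2.14 and -0.95 at days 2, 4 and 6. At days 4 and 6 the median is the miR-281-3p value itself, while miR-1175-3p went the other way, at 0.12 and 0.42.

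Markers of other tissues were read in the same way. All 5 miRNAs of the nervous system list held counts, of which miR-7, miR-315 and miR-1000 were tested and none was called against day 0, with or without day 0 replicate 1. The summed level of the list was 553.5 to 707.7 CPM at day 0, 629.3 to 1295 CPM at day 2, 601.5 to 826.5 CPM at day 4 and 508.2 to 916.9 CPM at day 6. Most of this sum was miR-7 alone, with means of 569.3, 604.6, 615.5 and 568.8 CPM at the 4 ages. The means of miR-1000 were 14.39, 25.69, 49.29 and 40.9 CPM. miR-124, the defining neuronal miRNA, held 42 counts over the 12 libraries and miR-210 held 14. miR-315, a brain miRNA in flies, was highest in day 2 replicate 3 at 529.3 CPM and between 10.2 and 24.96 CPM at day 4. Its log2 change was 1.92 at day 2 and -1.66 at day 4 (edgeR adjusted p = 0.0902 and 0.107). Its day 2 change was called by DESeq2 (adjusted p = 0.0429) and by edgeR without day 0 replicate 2 (2.53, adjusted p = 0.0428), as was that of miR-1000 at day 4 without the same library (2.61, adjusted p = 0.0372). Of the 7 miRNAs of ovary and early embryo, 6 were at 0 in every library, and miR-989 held 113 counts, all in day 0 replicate 1.

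The fat body list holds miRNAs studied in insect fat body, though none is made there alone. Their summed level was 204700 to 363300 CPM at day 0, 389900 to 514900 CPM at day 2, 554200 to 580300 CPM at day 4 and 611300 to 757600 CPM at day 6, far above the muscle and gut lists in every library. Of the 8 rows tested, 0 rose and 2 fell at day 2, beside 3.30% and 12.1% of all tested miRNAs. At day 4, 3 rose and 2 fell, beside 11.0% and 18.7%, and at day 6, 3 rose and 2 fell, beside 16.5% and 25.3%. Leaving out day 0 replicate 1 gave 2 rises and 2 falls at day 2, and 3 rises and 2 falls at each of days 4 and 6.

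The rises were those of both arms of miR-8 and of miR-33. miR-8-3p, which promotes growth through insulin signalling in the fly fat body, was at 68440, 331200 and 251400 CPM at day 0, with replicate 1 far below the others. It rose by 1.33 at day 4 (SE 0.43, edgeR adjusted p = 0.0331) and by 1.63 at day 6 (SE 0.43, edgeR adjusted p = 0.0119), and by 0.98 and 1.24 without that library. The day 4 call of miR-8-3p held in 7 of 12 fits without a library, and ended without day 0 replicate 3, any day 4 library or day 6 replicate 3 (edgeR adjusted p = 0.0517 to 0.0839). miR-8-5p rose by 1.20 and 1.07 (edgeR adjusted p = 0.00657 and 0.0087), and by 1.19 and 1.01 without day 0 replicate 1. miR-33, a miRNA of lipid metabolism in flies and vertebrates, rose by 2.54 (SE 0.71, edgeR adjusted p = 0.0183) and 2.74 (SE 0.71, edgeR adjusted p = 0.0117), and by 2.47 and 2.63 without day 0 replicate 1. At day 6 its level was 954.0, 883.2 and 65.57 CPM, so replicate 3 lay below every day 0 library (72.69, 104.8 and 106.1 CPM) and the rise was carried by the other libraries. Its day 4 call ended without day 4 replicate 1 (2.38, edgeR adjusted p = 0.0659).

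The falls were those of miR-278 and of a minor miR-8 row, and both were highest in day 0 replicate 1. miR-278, which acts on insulin response and lipid stores in flies, was at 37560, 11880 and 10650 CPM at day 0. Its log2 changes were -1.97, -2.32 and -2.43 at days 2, 4 and 6, all called (edgeR adjusted p = 0.0131, 0.00588 and 0.00236), and -1.10, -1.42 and -1.56 without day 0 replicate 1, also called. The minor row of miR-8 was at 2046, 112.4 and 97.64 CPM at day 0. Its changes were -5.14, -4.65 and -4.54 (edgeR adjusted p = 0.0111, 0.00736 and 0.00685), and -2.30, -1.74 and -1.67 without day 0 replicate 1, all called. The day 2 calls ended without any 1 of the day 2 libraries for miR-278 (edgeR adjusted p = 0.0558 to 0.0565) and without day 2 replicate 3 for the minor miR-8 row (0.0563). miR-275, with 98300 CPM in day 0 replicate 1 and 19260 CPM in each of the others, had changes of -1.12, -1.04 and -1.07, none called, and of 0.16, 0.28 and 0.21 without that library. miR-277-3p and a second row of miR-278 were not called at any age with all libraries. With miR-8-3p, which took up to 58.4% of a library, left out of the fit, the log2 change of miR-1-3p at day 6 was -2.85, and its call held.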

How the data were processed

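Small RNA was sequenced from 12 fat body libraries, 3 at each of 4 ages. The authors deposited raw counts per mature miRNA name, 26711 names under 115 species prefixes, of which 5500 held counts; the sources used here do not give the aligner, the miRNA release or the mismatches allowed (not given in the sources). RNA was extracted with TRIzol, per the labels' protocols. Identical counts in many rows point to reads that count under every name they match, so the 1513 rows with at least 120 counts were joined by their profiles into 103 groups, each standing by its largest row; other forms that share reads may still be split. There were 0 columns of other samples.

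Counts were tested with edgeR 4.0.16 (R 4.3.3, limma 3.58.1): TMM factors, filterByExpr (minimum count 10), quasi-likelihood fit of the 12 libraries with a term for age, Benjamini-Hochberg adjustment over 91 miRNAs. The standard error is the log2 change divided by the square root of F. CPM uses the same factors. Correlations used log2 (CPM + 1) and 100000 permutations (two-sided). Intervals are 95% exact Poisson or Clopper-Pearson and cover counting error only. The test was checked on simulated counts. Alternatives were DESeq2 1.42.0, limma-voom, RLE factors, total counts, all rows, no filter, a replicate block, each library left out, only the libraries compared, arthropod names alone, summed profiles, the most abundant miRNA left out and, added later, fly rows. The comparison of day 6 with day 2 and the correlations with depth and of other forms were added after seeing the data. miRNAs were named by rule: the 3 members, all forms of their numbers with enough counts, the measured miRNAs of the tissue lists, and the 5 most alike to each. The members and lists were chosen with earlier results of these data known. Python 3.11.15, pandas 2.3.3, NumPy 2.4.6, SciPy 1.17.1 and matplotlib 3.10.9 were used.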

Additional observations from a re-analysis of the deposited data

Results flagged for a closer look

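Signal appeared in rows that no comparison used. miR-989, an ovary miRNA in mosquitoes and flies, held 113 counts in day 0 replicate 1 under a moth's name and 0 in each of the other 11 libraries. miR-206, a vertebrate skeletal muscle miRNA, held 38 counts over the 12 libraries under vertebrate names. The source of either was not tested. With 3 libraries an age, no sample was examined as far from the rest of its group by the gap to its neighbour.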

How the results depend on the processing

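Alternatives were run for the changes, mean levels and correlations of the 3 muscle and gut miRNAs and for the counts of calls. Single libraries left out apart, 332 results stayed the same, 5 reversed, 9 lost and 2 gained a call, and 34 moved. For changes and correlations, the same means that direction and side of the threshold were kept. Mean levels and counts of calls have no direction or threshold of their own. For them the same means only that the value was not counted as moved. The fall of miR-1-3p at day 4 was called under every alternative run. Its fall at day 6 was not called with no filter (-2.67), limma-voom (-2.56), only the libraries compared (-2.71), all rows (-2.43) or arthropod names alone (-2.46). Its call over the ages was lost with no filter (0.0581), limma-voom (0.0526), all rows (0.0508) and the replicate block (0.0511). Its change from day 2 to day 4 was called with only the libraries compared (-2.80). The replicate numbers showed no clear pairing of the libraries: correlations of deviations over 18 same-number pairs ran from -0.621 to 0.379, and 3 of 12 libraries went best with their own number. Pairing is not excluded by this, since the numbers come from the sample titles. In the sample descriptions, day 0 replicate 1 carries a different number from replicate 1 of the later ages. Calls over the ages went from 26 to 15 under the block. Uncalled signs reversed for miR-133-3p at day 4 with no filter (0.09), limma-voom (0.33) and all rows (0.50), for miR-281-3p at day 2 without the most abundant miRNA (-0.01), and for the correlation of miR-1-3p with miR-133-3p with total counts (0.00916), where that of miR-1-3p with miR-281-3p passed the threshold (0.681). With total counts the median change of all miRNAs moved to -0.29 at day 4 and -0.33 at day 6; relative to it miR-1-3p was at -3.96 and -2.61. Calls over all miRNAs at day 2, 14, were 8 with no filter, 23 with DESeq2, 0 with only the libraries compared and 232 with all rows. At day 4, 27 became 14 with only the libraries compared and 346 with all rows; at day 6, 38 became 12 and 426. Day 4 against day 2 had 1 with DESeq2 and 4 with only the libraries compared; day 6 against day 2 had 4 with total counts, DESeq2 or only the libraries compared, and 1 with no filter, arthropod names alone or without the most abundant miRNA. Over the ages, 26 became 17 with no filter and 347 with all rows. Summing distinct profiles, which counts reads more than once, gave mean levels at days 0, 2, 4 and 6 of 6539, 2617, 384 and 1016 CPM (miR-1-3p), 235, 285, 197 and 398 (miR-133-3p) and 1411, 1484, 338 and 780 (miR-281-3p). Of the other forms, vertebrate-named miR-1 lost its call at day 2 with no filter and with only the libraries compared, at day 4 with no filter and over the ages with no filter and total counts, and miR-281-5p gained one at day 4 with DESeq2. In the fat body list, calls at days 4 and 6 were lost for miR-8-3p with only the libraries compared (1.35 and 1.60), at day 4 with no filter (1.36) and the replicate block (1.39), for miR-8-5p at day 6 with only the libraries compared (1.07), for miR-33 at day 6 with limma-voom (1.99) and only the libraries compared (2.74), and for the minor miR-8 row at days 2 and 4 (-5.14 and -4.55) and miR-278 at day 2 (-1.93) with only the libraries compared. With fly rows, miR-281-3p was at 0.4, 0.425 and 0 CPM at days 2, 4 and 6, too few counts to test. The cause of these differences was not tested.

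With each library left out, calls over all miRNAs ranged 0 to 29 (day 2), 13 to 34 (day 4), 24 to 42 (day 6), 0 to 1 (day 4 against 2), 0 to 0 (day 6 against 4), 0 to 11 (day 6 against 2) and 13 to 36 (ages). The counts moved by over 1.5 times at day 2 without day 0 replicates 1 (22) and 2 (29) or day 2 replicates 1 (6), 2 (7) and 3 (0), at day 4 without day 4 replicates 1 (13) and 3 (16), at day 6 without day 6 replicate 2 (24), and over the ages without day 2 replicate 1 (17), day 4 replicates 1, 2 and 3 (13, 13 and 14) or day 6 replicate 2 (16). Without day 0 replicate 1 there were 11 rises and 11 falls at day 2, 16 and 18 at day 4 and 19 and 23 at day 6. miR-1-3p ranged -1.80 to -0.49 (day 2), -4.53 to -3.25 (day 4), -3.21 to -1.87 (day 6), -3.17 to -2.41 (day 4 against 2), 0.82 to 1.79 (day 6 against 4) and -1.92 to -0.94 (day 6 against 2), with an adjusted p over the ages of 0.00247 to 0.0601. miR-133-3p ranged -1.0 to 1.69, -0.62 to 1.17, -0.03 to 2.12, -0.96 to 0.78, 0.10 to 1.38 and -0.43 to 1.78 (ages 0.304 to 0.942), and miR-281-3p -0.51 to 2.17, -2.73 to -0.03, -1.68 to 1.16, -2.80 to -1.63, 0.36 to 1.81 and -1.76 to -0.44 (ages 0.12 to 0.548), none called. The correlations ranged -0.322 to 0.0713 (miR-1-3p with miR-133-3p), 0.496 to 0.879 (with miR-281-3p) and 0.0723 to 0.437 (miR-133-3p with miR-281-3p). Counts were low for miR-133-3p, at 35 to 180 a library, and for miR-1-3p at day 4, at 46 to 229.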

Other observations

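Rows of these numbers under the threshold for joining held few counts. miR-1 rows named in nematodes held at most 62 counts, with 0, 9 and 8 at day 0, 2, 11 and 11 at day 2, 4, 1 and 3 at day 4 and 1, 8 and 4 at day 6. miR-133b rows of vertebrates held at most 43 counts, with 0, 1 and 1 at day 0 and 11 in day 2 replicate 2.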
